A study of Mus musculus with 48 samples.

Results

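A set of 10 genes of the heat shock chaperone system was followed across the thoracic aorta of male and female mice with and without aortic disease, out of 18782 genes in the deposited table. The 10 members were chosen by name and function: the inducible HSP70 genes Hspa1a and Hspa1b, the constitutive HSP70 gene Hspa8, the HSP70 helpers Dnajb1, Hsph1 and Bag3, the HSP90 gene Hsp90aa1, the small heat shock protein gene Hspb1, and the mitochondrial chaperonin genes Hspd1 and Hspe1. Earlier results of these data were known at that choice, so counts of members set beside all tested genes are descriptions only. All 10 were listed in the table and passed the filter on low counts, which left 14431 genes for testing.

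Each of the 48 libraries came from the thoracic aorta of 1 wild-type C57BL/6J mouse. Controls of both sexes drank normal water, and the other mice drank water with 0.4% β-aminopropionitrile (BAPN) for 28 days from 3 weeks of age. BAPN blocks lysyl oxidase, through which collagen and elastin fibres are cross-linked. Control groups were MaCon in males (n = 10) and FeCon in females (n = 10). BAPN-treated mice without a lesion formed MaNonAD (n = 4) and FeNonAD (n = 8), and those with aortic dissection or aneurysm formed MaAAD (n = 7) and FeAAD (n = 9). The outcome was thus observed rather than assigned, and only mice that survived to the end of treatment were sequenced. Males and females, and controls and BAPN-treated mice, were housed in separate cages, so that cage cannot be told apart from sex or from treatment. Faeces were taken in the morning of the last day, just before the mice were killed, but the hour at which each aorta was taken is not given in the sources used here.

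Chaperones keep other proteins folded. Under heat, oxidation or mechanical load, unfolded proteins draw HSP70 and HSP90 away from heat shock factor 1 (HSF1), which then binds heat shock elements in the promoters of chaperone genes and raises their transcription within minutes. In the wall of the aorta, HSP70, the small heat shock protein HSP27 and BAG3 also help to maintain the contractile and cytoskeletal proteins of smooth muscle cells. The inducible HSP70 genes are also known to follow body temperature over the day.

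Library totals lay between 13548003 and 17281262 counts. Expression is given as CPM, the count of a gene scaled by the total and the TMM factor of its library. Genes were called differentially expressed (DEGs) where edgeR's quasi-likelihood test gave an adjusted p (Benjamini-Hochberg) under 0.05 together with a log2 fold change of 1 or more in size. The labelled tissue was borne out by its markers, since the summed level of 8 smooth muscle genes was at least 13309 CPM in every library. Markers of other cells varied more, with summed red cell genes reaching 26918 CPM in FeAAD and summed T cell genes reaching 115 CPM in MaCon. In bulk tissue, fewer cells of a type and less RNA per cell cannot be told apart.

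The members were first compared in sequence, because HSF1 acts through short inverted repeats and because 2 members are nearly the same gene. The reading frames of Hspa1a (1923 bases) and Hspa1b (1926 bases) in the longest GENCODE M21 transcripts were 99.4% identical, with a longest identical stretch of 638 bases. The frame of Hspa8 (1938 bases) was 74.1% identical to that of Hspa1a, and its longest identical stretch was 22 bases. Counts of Hspa1a and Hspa1b individually are therefore uncertain, their calls are not independent, and their sum is given beside them in each comparison with a call. RefSeq promoter windows of build GRCm38.p6, from 250 bases before to 50 bases after a transcript start, were found for 8 of the 10 members. Those of Hspa8 and Hsp90aa1 were not used here. A heat shock element was searched as 2 adjoining inverted units, GAANNTTC or TTCNNGAA, and as 3 such units in a row, GAA and TTC in alternation with NN between them, which contains the 2-unit motif. Both strands were searched, and each 2-unit motif reads the same on both. The 2-unit motif was present for 7 of the 8 members, Dnajb1 being the exception, against 15.1% of all 32851 promoter windows. Its 3-unit form was present for Hspd1, Hspe1 and Hsph1, against 0.603% of all windows. Both shares count windows and not genes. The 8 members had 11 windows, and both windows of Dnajb1 and 1 of the 2 windows of Hspd1 lacked the 2-unit motif. The 250 bases before the start are shown for both inducible HSP70 genes, whose levels ranged most widely, for Hspb1, which fell in both sexes, and for Hspe1, whose window overlaps that of the neighbouring Hspd1. Capitals mark the 2-unit motif.
Hspa1a, chr17:34972157-34972406, minus strand: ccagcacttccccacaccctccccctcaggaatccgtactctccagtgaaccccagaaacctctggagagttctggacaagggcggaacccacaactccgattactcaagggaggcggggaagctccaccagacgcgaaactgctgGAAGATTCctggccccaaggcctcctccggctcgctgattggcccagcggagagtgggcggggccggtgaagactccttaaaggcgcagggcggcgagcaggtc
Hspa1b, chr17:34959239-34959488, minus strand: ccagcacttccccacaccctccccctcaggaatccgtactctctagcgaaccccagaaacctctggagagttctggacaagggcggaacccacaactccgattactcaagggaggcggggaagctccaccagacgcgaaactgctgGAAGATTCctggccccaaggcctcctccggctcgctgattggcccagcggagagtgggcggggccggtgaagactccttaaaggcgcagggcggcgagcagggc
Hspb1, chr5:135887669-135887918, plus strand: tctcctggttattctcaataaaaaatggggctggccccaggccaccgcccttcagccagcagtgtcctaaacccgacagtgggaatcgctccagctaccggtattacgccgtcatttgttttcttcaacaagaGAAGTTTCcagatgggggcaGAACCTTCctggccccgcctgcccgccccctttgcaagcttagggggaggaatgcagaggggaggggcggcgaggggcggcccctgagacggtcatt
Hspe1, chr1:55087898-55088147, plus strand: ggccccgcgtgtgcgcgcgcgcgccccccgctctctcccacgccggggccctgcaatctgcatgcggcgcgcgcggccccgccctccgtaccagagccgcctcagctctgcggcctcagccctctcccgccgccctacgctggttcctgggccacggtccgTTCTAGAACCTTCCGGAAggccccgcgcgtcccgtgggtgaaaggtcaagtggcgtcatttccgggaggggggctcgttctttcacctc
The full windows of Hspa1a and Hspa1b differed at 4 of 300 positions, none of them in the motif that starts 104 bases before both starts. Hspb1 had a pair of separate motifs, starting 117 and 97 bases before its start. The overlapping units of Hspe1 and Hspd1 are the same bases read from opposite strands, since these genes are transcribed away from each other. In Hsph1 the 3-unit motif lay after the annotated start. These matches describe letters in a window and not bound sites.

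**Figure D1:**
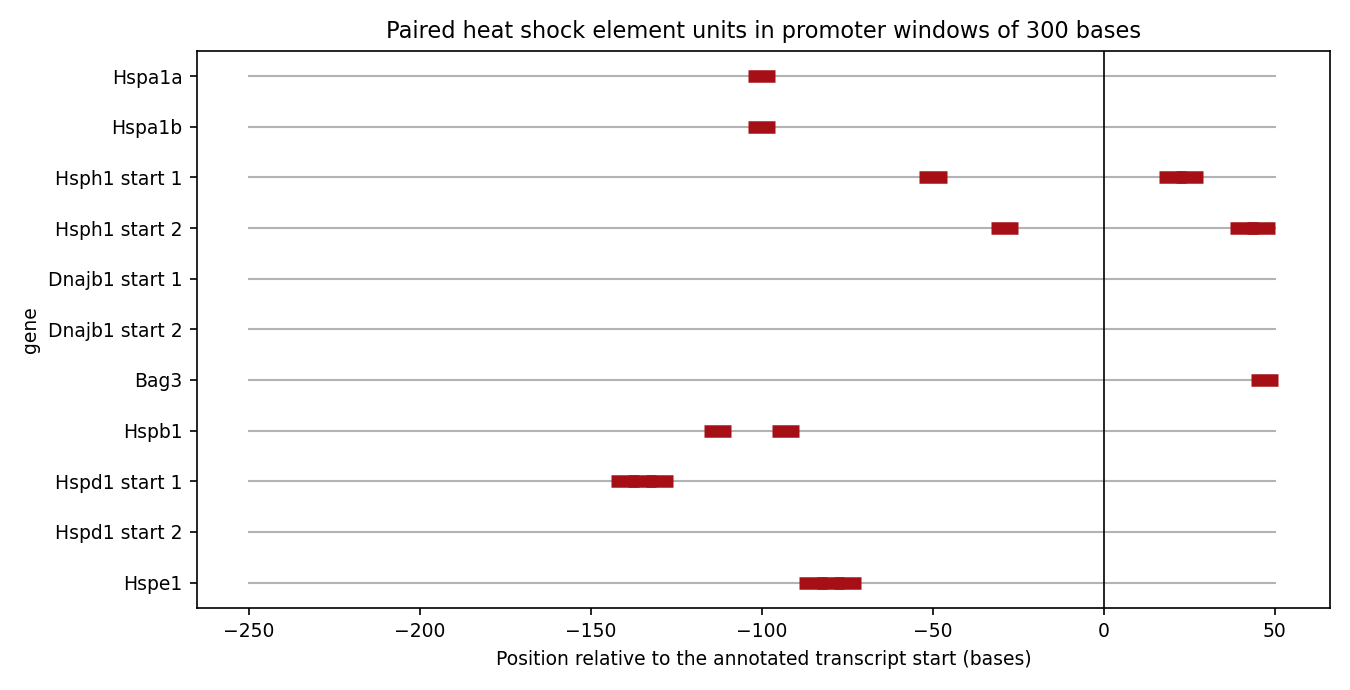
Positions of 2-unit heat shock element motifs (red bars) in promoter windows of the 8 members with a RefSeq entry, with the distance from the annotated transcript start in bases on the horizontal axis and 1 line per start. Hspa1a and Hspa1b have their motif at the same distance, 104 bases before the start, and the windows of Dnajb1 have none.

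Compared per kilobase of the longest transcript, Hspb1 and Hspa8 were the most abundant members. In MaCon the median level of Hspb1 was 1273 CPM per kb and that of Hspa8 was 1053 CPM per kb, whereas Dnajb1 had the lowest median of the 10 at 19.8 CPM per kb. In MaAAD the order of the leading pair was reversed, with 486 CPM per kb for Hspa8 and 367 CPM per kb for Hspb1. The inducible genes lay far below the constitutive Hspa8, at median levels of 102 CPM per kb for Hspa1a and 121 CPM per kb for Hspa1b in MaCon.

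The inducible HSP70 pair was the most variable part of the system. Around the 6 group means, log2(CPM + 1) of Hspa1b had a residual SD of 1.07, larger than that of 99.6% of tested genes, and Hspa1a had a residual SD of 0.95, larger than that of 99.3%. Hsph1 followed with 0.70 (97% of genes had a smaller SD), whereas Bag3 was the steadiest member with 0.34 (67.9%). The spread was widest in MaCon, where the SD of Hspa1b was 1.65, against 0.35 in FeCon.

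Summed Hspa1a and Hspa1b ranged from 151 to 2922 CPM in the 10 MaCon libraries, with a median of 643 CPM. In the 4 MaNonAD libraries the sum was 113, 148, 129 and 196 CPM. In the 7 MaAAD libraries it ranged from 42.7 to 138 CPM, with a median of 94.5 CPM. Every MaAAD library thus lay below every MaCon library, and MaNonAD lay at the lower edge of MaCon. In females, FeCon ranged from 192 to 356 CPM with a median of 289 CPM. FeNonAD ranged from 105 to 851 CPM with a median of 205 CPM, and FeAAD from 49.5 to 561 CPM with a median of 151 CPM. FeNonAD fell into separate clusters, with 703, 851 and 681 CPM in replicates 5, 6 and 8 and between 105 and 206 CPM in the other 5 libraries. By group median the order was MaCon, FeCon, FeNonAD, FeAAD, MaNonAD and MaAAD, and all neighbours in this order overlapped in range.

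**Figure D2:**
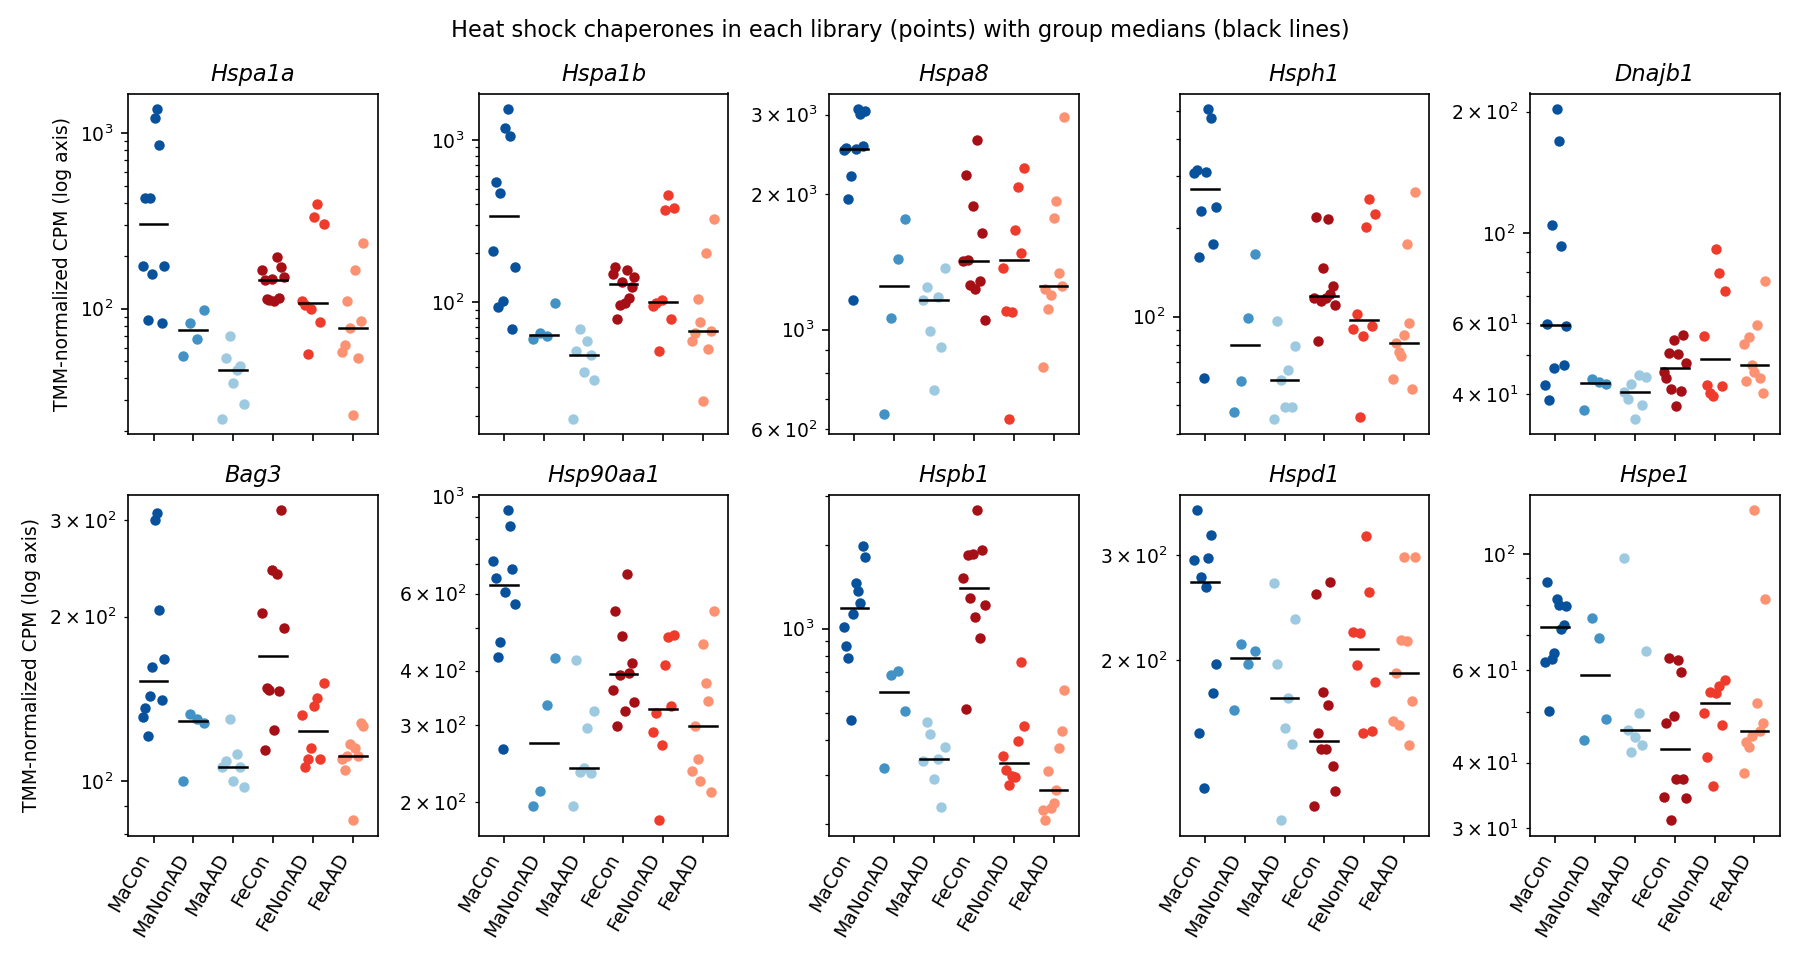
TMM-normalized CPM on log axes for the 10 members, with 1 point per library, black lines at group medians, males in blue and females in red. Hspa1a and Hspa1b spread over more than a decade in MaCon, from 83.2 to 1374 CPM for Hspa1a, while Hspb1 lay lower in the BAPN-treated groups of both sexes.

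In MaAAD, 7 of the 10 members fell against MaCon as DEGs, against 2.18% of all tested genes, and none rose. Their median log2 fold change was −1.16, while that of all tested genes was −0.03. The sum of Hspa1a and Hspa1b fell 11.6-fold (log2 fold change −3.53, SE 0.54, adjusted p = 1.32e-06), and an exact two-sided permutation test of its mean log2(CPM + 1) gave an adjusted p of 0.00509 over 9 comparisons. Fitted one at a time, Hspa1a fell by 3.52 and Hspa1b fell by 3.60 on the log2 scale. Hspa1a, Hspa1b and Hspb1 did not overlap between MaAAD and MaCon, as was so for 2.77% of tested genes in this direction. Leaving out any 1 library kept 6 or 7 members called. Dnajb1 was the member that dropped under the fold threshold, at −0.83 without MaCon replicate 6 and −0.93 without MaCon replicate 7.

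Of the 3 helpers of HSP70, Hsph1 and Dnajb1 fell as DEGs in MaAAD, and Bag3 fell by adjusted p but not by fold. With DEGs included, 8 of the 10 members fell by adjusted p, against 16.1% of tested genes. Hsph1, a nucleotide exchange factor of the HSP110 family, ranged from 62.1 to 507 CPM in MaCon (median 272) and from 45.1 to 96.5 CPM in MaAAD (median 60.9). MaCon replicate 5 alone was within the MaAAD range, and the log2 fold change was −2.12 (SE 0.35, adjusted p = 5.84e-06). Dnajb1, the HSP40 co-chaperone that stimulates the ATPase of HSP70, had MaCon values from 38.8 to 203 CPM (median 59.3) and MaAAD values from 34.8 to 44.7 CPM (median 40.4). Its fall of 1.09 on the log2 scale (adjusted p = 0.000302) went with 4 MaCon libraries at 92.8 to 203 CPM, the other 6 lying between 38.8 and 59.7 CPM. Bag3, which releases clients from HSP70 and passes damaged filamin to autophagy, ranged from 121 to 310 CPM in MaCon and from 97.6 to 130 CPM in MaAAD. With 9 of 10 MaCon libraries above the MaAAD range, its log2 fold change of −0.74 (adjusted p = 0.00055) passed the test but not the fold threshold.

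The abundant cytosolic chaperones Hspa8 and Hsp90aa1 also fell as DEGs. Hspa8, the constitutive HSP70, had a median of 2522 CPM in MaCon (1165 to 3089) and of 1164 CPM in MaAAD (733 to 1372). Apart from MaCon replicate 5, the groups did not overlap, and the log2 fold change was −1.18 (SE 0.23, adjusted p = 8.78e-05). Hsp90aa1, the inducible HSP90, had medians of 628 CPM in MaCon (264 to 930) and 239 CPM in MaAAD (196 to 424). Its log2 fold change was −1.15 with an SE of 0.22 (adjusted p = 6.28e-05). The mitochondrial chaperonin Hspd1 (HSP60) and its lid Hspe1 (HSP10) were not called. Hspd1 had a log2 fold change of −0.43 (adjusted p = 0.0997) and Hspe1 of −0.36 (adjusted p = 0.142). Hspe1 ranged from 50.1 to 88.3 CPM in MaCon and from 41.9 to 98 CPM in MaAAD, where the highest value belonged to replicate 1, the library with the lowest Hspa1a and Hspa1b of the group.

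MaNonAD gave a smaller number of calls with the same signs. All 10 members had negative log2 fold changes against MaCon, with a median of −1.07, and 3 were DEGs, against 0.097% of all tested genes in this direction. These were Hspa1a (log2 fold change −2.72, adjusted p = 0.0225), Hspa1b (−2.94, adjusted p = 0.0321) and Hsp90aa1 (−1.08, adjusted p = 0.0498). Hsph1 had 47.5, 60.7, 99.2 and 163 CPM in the 4 MaNonAD libraries and missed the threshold (log2 fold change −1.58, adjusted p = 0.0732). For the summed pair edgeR gave −2.80 on the log2 scale with an SE of 0.66 (adjusted p = 0.0263). Its exact permutation test gave a log2 difference of −2.14 with p = 0.018 and an adjusted p of 0.0682. Replicate 1 had the lowest value of the group for all 10 members. Beside these calls, 4 of 5 B cell markers rose as DEGs in MaNonAD (median 2.34), with summed levels from 7.32 to 20.5 CPM against 0.856 to 5.5 CPM in MaCon, and their part was not tested. The count depended on single libraries: 0 members were called without MaNonAD replicate 1, 2 or 3, 1 without MaCon replicate 6, 7 or 8, and 6 without MaCon replicate 5, while DESeq2 called 6. With only the compared groups in the fit, or with a replicate block, 0 were called. From MaNonAD to MaAAD, edgeR and DESeq2 both called 0 members, against 0.353% of all tested genes, and 1, Hspb1, had an unadjusted p under 0.05. The summed pair differed there by −0.73 on the log2 scale, with an interval from −1.88 to 0.41. An exact two-sided permutation test of the pair gave −0.78 (p = 0.0303, adjusted p = 0.0682), and 6 of 7 MaAAD libraries lay below the lowest MaNonAD library.

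In females, Hspb1 was the 1 member called in each comparison with FeCon. DEGs that fell made up 1.08% of tested genes in FeNonAD and 2.78% in FeAAD. Hspb1 encodes HSP27, which binds and stabilizes actin filaments and is abundant in smooth muscle. It ranged from 514 to 2655 CPM in FeCon (median 1399), from 275 to 760 CPM in FeNonAD (median 331) and from 206 to 605 CPM in FeAAD (median 263). FeCon replicate 2, at 514 CPM, was the only control within the ranges of the treated groups. The log2 fold change of Hspb1 was −1.92 in FeNonAD (SE 0.26, adjusted p = 3.61e-06) and −2.21 in FeAAD (SE 0.26, adjusted p = 3.36e-09). In males the gene had 316, 682, 708 and 505 CPM in MaNonAD, 470 to 1977 CPM in MaCon and 230 to 462 CPM in MaAAD. It fell by 1.79 in MaAAD (SE 0.28, adjusted p = 1.41e-06), while the MaNonAD value of −1.13 did not pass (adjusted p = 0.106). The difference between the sexes in the AAD response of Hspb1 was 0.42 with an SE of 0.35 (adjusted p = 0.603).

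Bag3 fell by adjusted p with AAD in both sexes and with NonAD in females. FeCon ranged from 114 to 313 CPM (median 169), FeNonAD from 106 to 151 CPM (median 123) and FeAAD from 84.9 to 128 CPM (median 111), so that 8 of 10 FeCon libraries exceeded every FeAAD library. The log2 fold change was −0.58 in FeNonAD (adjusted p = 0.0134) and −0.74 in FeAAD (adjusted p = 0.000161), under the fold threshold in both. By adjusted p alone 7.66% of tested genes fell in FeNonAD and 20.6% in FeAAD, and among the members these were Hspb1 and Bag3. The other 8 members did not pass in either comparison with all libraries in the fit. The summed inducible pair changed by 0.54 in FeNonAD (interval −0.34 to 1.41, adjusted p = 0.446) and by −0.39 in FeAAD (interval −1.25 to 0.46, adjusted p = 0.492). Exact two-sided permutation tests of the summed pair gave log2 differences of 0.17 in FeNonAD (p = 0.655, adjusted p = 0.655) and −0.70 in FeAAD (p = 0.0527, adjusted p = 0.0791), and 6 of 9 FeAAD libraries lay below the lowest FeCon library while 2 lay above the highest. From FeNonAD to FeAAD, edgeR and DESeq2 both called 0 members, against 7.04% of all tested genes, with 1 member, Hspa1a (−0.94), at an unadjusted p under 0.05.

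The remaining cytosolic members overlapped widely among the female groups. Hspa8 ranged from 1048 to 2640 CPM in FeCon (median 1422), from 634 to 2282 CPM in FeNonAD (median 1425) and from 825 to 2971 CPM in FeAAD (median 1247). Hsph1 had medians of 118 CPM in FeCon, 97.5 CPM in FeNonAD and 81.2 CPM in FeAAD, with ranges of 45.7 to 250 CPM in FeNonAD and 56.8 to 265 CPM in FeAAD. Dnajb1 was narrow in FeCon (37.4 to 56.1 CPM) and reached 91.5 CPM in FeNonAD and 76.3 CPM in FeAAD, so that its upper values came from treated mice in females but from controls in males. Hsp90aa1 had medians of 393, 326 and 299 CPM in FeCon, FeNonAD and FeAAD, and its log2 fold change in FeAAD was −0.37 (adjusted p = 0.141).

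Neither mitochondrial member was a DEG in any comparison. Hspd1 ranged from 114 to 270 CPM in FeCon, from 151 to 322 CPM in FeNonAD and from 144 to 298 CPM in FeAAD, with log2 fold changes of 0.35 and 0.29 that did not pass. In males it ranged from 122 to 356 CPM in MaCon, stood at 165, 213, 197 and 207 CPM in MaNonAD and ranged from 108 to 269 CPM in MaAAD. Hspe1 had medians of 42.5 CPM in FeCon, 52 CPM in FeNonAD and 45.9 CPM in FeAAD, and 1 FeAAD library, replicate 5, reached 121 CPM. That library had the lowest sum of Hspa1a and Hspa1b in its group, 49.5 CPM. Its Hspd1 level of 298 CPM was matched by replicate 9, which had the highest sum, 561 CPM.

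Cell type markers moved beside these falls. In AAD, 8 of 8 smooth muscle markers fell by adjusted p in each sex, 5 of them as DEGs, and their summed level ranged from 30871 to 68659 CPM in MaCon, from 13309 to 31982 CPM in MaAAD, from 33477 to 58882 CPM in FeCon and from 15318 to 35061 CPM in FeAAD. All 7 macrophage markers rose as DEGs in each sex, with summed levels from 159 to 417 CPM in MaCon and from 628 to 2072 CPM in MaAAD. Of 6 fibroblast markers 2 rose as DEGs in each sex, with summed levels from 5253 to 7072 CPM in MaCon, from 7287 to 14432 CPM in MaAAD, from 5025 to 7501 CPM in FeCon and from 7262 to 14201 CPM in FeAAD. In FeNonAD, where Hspb1 fell by 1.92, no smooth muscle marker was a DEG, 2 of 8 fell by adjusted p alone, and their median log2 fold change was −0.43. Neutrophil markers rose as DEGs for 4 of 5 in MaAAD (median 3.88) and 5 of 5 in FeAAD (median 4.98). B cell markers did so for 1 of 5 in FeNonAD (median 1.07), 3 of 5 in MaAAD and 5 of 5 in FeAAD, and red cell markers for 5 of 5 in FeAAD (median 3.62). In FeNonAD 1 of 6 heart muscle markers (median −0.94) and 1 of 4 tested skeletal muscle markers (median −1.01) fell as DEGs, and in FeAAD 3 heart muscle markers (median −1.72) and 1 skeletal muscle marker (median −1.09) did. In MaAAD 1 heart muscle marker (median −0.71) fell as a DEG. Summed heart muscle markers ranged from 68.9 to 500 CPM in FeCon, from 74.6 to 143 CPM in FeNonAD and from 30.2 to 111 CPM in FeAAD. The part of cell composition in the members' falls was not tested.

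**Figure D3:**
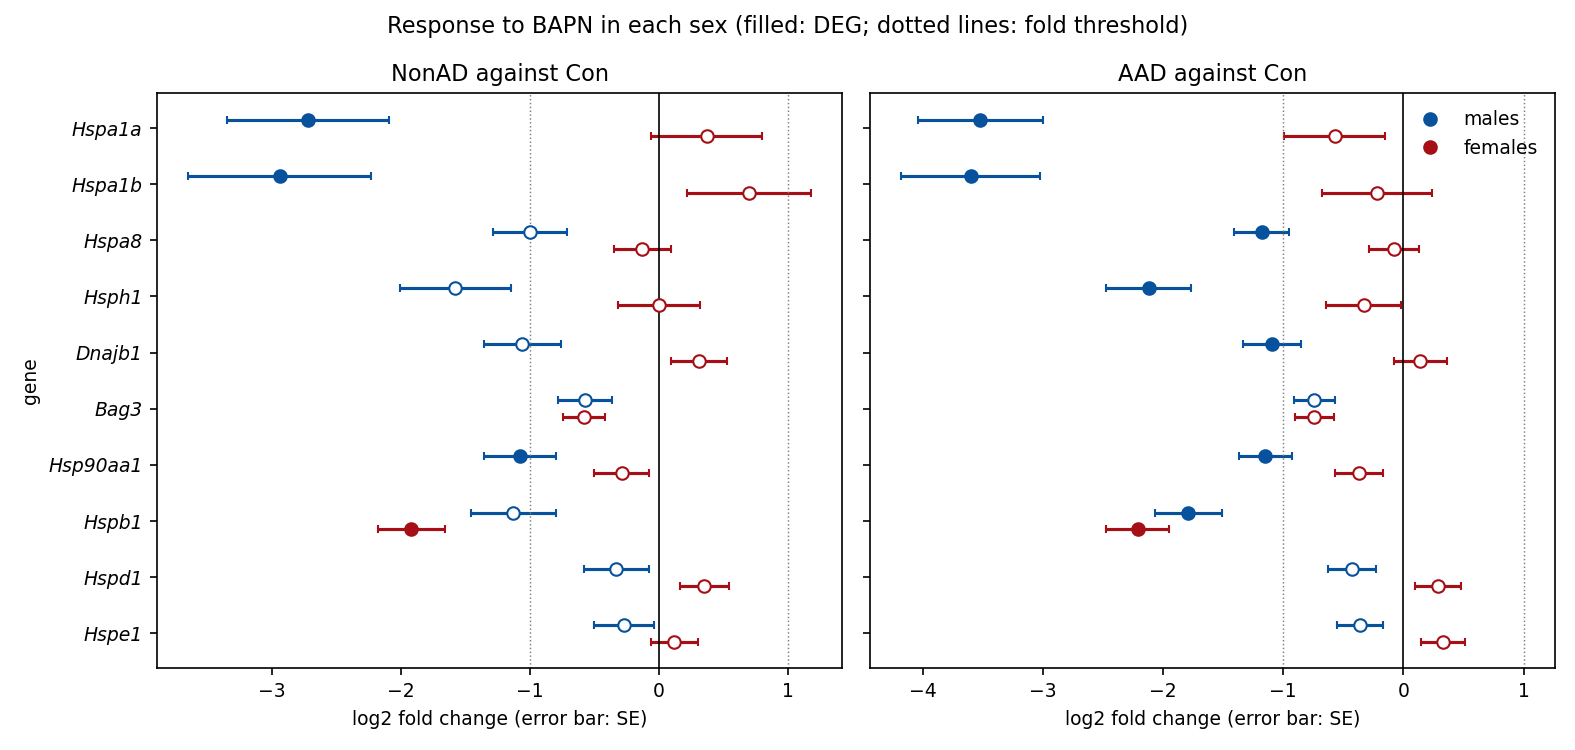
Log2 fold change of each member against the control group of the same sex, with NonAD on the left and AAD on the right, males in blue, females in red, error bars of 1 SE and filled points for DEGs. The inducible pair lay between −2.72 and −3.60 in males and between −0.57 and 0.70 in females, while Hspb1 and Bag3 lay on the same side in both sexes.

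Without BAPN, 3 of the 10 members were DEGs between the sexes, all higher in males. MaCon exceeded FeCon as a DEG for Hspa1a (log2 fold change 1.80, adjusted p = 0.00282), Hspa1b (2.12, adjusted p = 0.00187) and Hsph1 (1.03, adjusted p = 0.0179), against 0.644% of all tested genes. By adjusted p alone Hspa8, Dnajb1, Hspd1 and Hspe1 were also higher, making 7 of 10 against 6.38%. Hsph1 was not called without MaCon replicate 7 or 8 or without FeCon replicate 1, 3, 4 or 10. The groups overlapped for every member: for Hspa1b, 7 MaCon libraries exceeded the highest FeCon library and 1 lay below the lowest. For Hspe1 the ranges were 50.1 to 88.3 CPM in MaCon and 31.1 to 63.4 CPM in FeCon, and its log2 fold change of 0.65 had an SE of 0.17. For the summed pair, a permutation test with 100000 resamples gave a log2 difference of 1.27 with p = 0.0234 and an adjusted p of 0.0682, where edgeR gave 1.94 and an adjusted p of 0.00214. Hspb1 (−0.29, adjusted p = 0.43) and Bag3 (−0.04, adjusted p = 0.892) did not pass. Of 6 T cell markers 3 were also higher in MaCon as DEGs (median 1.54, all 6 positive), with summed levels from 1.54 to 115 CPM in MaCon and from 1.57 to 14.6 CPM in FeCon, and their part in the members' difference was not tested. Among BAPN-treated mice no member was called between the sexes by edgeR or DESeq2, against 0.0485% of tested genes for NonAD and 0.0693% for AAD. There 2 members in NonAD (Hspa1a and Hspa1b) and 4 in AAD (these with Hsph1 and Hspa8) had an unadjusted p under 0.05, all with lower values in males. Counts by unadjusted p, here and in the other comparisons, have no share of all tested genes beside them and are descriptions only.

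The response itself differed between the sexes for part of the members when tested as an interaction. In AAD, the male log2 fold change was below the female one for 4 members, against 0.173% of all tested genes in this direction: Hspa1a (log2 difference −2.95, adjusted p = 0.0106), Hspa1b (−3.39, adjusted p = 0.00925), Hsph1 (−1.79, adjusted p = 0.0347) and Dnajb1 (−1.23, adjusted p = 0.0378). In NonAD, it was lower in males for Hspa1a (−3.09, adjusted p = 0.0378) and Hspa1b (−3.64, adjusted p = 0.03), against 0.0832%. For the summed pair the difference was −3.14 in AAD (adjusted p = 0.00892) and −3.34 in NonAD (adjusted p = 0.0313). None of these members fell past the test in females, where Dnajb1 stood at 0.14 in FeAAD and the pair at 0.54 in FeNonAD. From NonAD to AAD, 0 members differed by edgeR or DESeq2, against 0% of tested genes, and 0 had an unadjusted p under 0.05. The NonAD and AAD interactions share the control libraries with the comparisons above. Without single libraries the AAD count was 2 to 5 of 10, with 2 left in the absence of any one of MaCon replicates 7 and 8, MaAAD replicates 4, 5 and 6, FeCon replicate 10 and FeAAD replicates 6 and 9. The NonAD count was 0 without any one of MaCon replicate 7, MaNonAD replicates 1 to 4 and FeNonAD replicates 5 and 6. It was 1 without any one of MaCon replicates 4, 6 and 8, FeCon replicates 1, 6 and 10 and FeNonAD replicate 8. With a replicate block in the fit, 0 members were called in the NonAD or the AAD interaction.

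Among the MaCon libraries, the inducible pair was set against each of its helpers. Relations to 14 measures were computed within each of 5 groups, 70 in all, between values that share a library and its scaling. For Dnajb1 in MaCon no coefficient is given, since its values fell into separate clusters, with 92.8 to 203 CPM in replicates 4, 6, 7 and 8, where the pair had 901 to 2922 CPM, and 38.8 to 59.7 CPM in the other 6, where the pair had 151 to 976 CPM. For Hsph1 in MaCon r was 0.74 (permutation adjusted p = 0.0534) and rho 0.88 (permutation adjusted p = 0.085), with r = 0.68 without the 2 libraries farthest from the median of the pair. For Bag3 in MaCon r was 0.79 (permutation adjusted p = 0.0472) and rho 0.67 (permutation adjusted p = 0.182), with r = 0.54 without those 2 libraries. No member passed in FeCon, MaAAD or FeAAD after adjustment, and no rho passed in any group. In FeNonAD the members were read by cluster and no coefficient is given: replicates 5, 6 and 8 had 201 to 250 CPM of Hsph1 against 45.7 to 102 CPM in the other 5, and 72 to 91.5 CPM of Dnajb1 against 39.5 to 55.8 CPM. Hspb1 did not divide in this way, with 294 to 447 CPM in those 3 libraries and 275 to 760 CPM in the others.

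Dbp encodes a transcription factor whose level swings with the daily clock, and Arntl encodes its activator BMAL1, which peaks at another phase. Dbp was under 30 CPM in 9 libraries, namely MaCon replicates 4, 6, 7 and 8, FeNonAD replicates 5, 6 and 8, and FeAAD replicates 6 and 9. In MaCon these 4 had 4.21 to 6.31 CPM of Dbp and 901 to 2922 CPM of summed Hspa1a and Hspa1b, whereas the other 6 had 57.9 to 472 CPM of Dbp and 151 to 976 CPM of the pair. In FeNonAD the 3 libraries of the upper Hspa1 cluster had 3.53 to 24.8 CPM of Dbp and 31.2 to 63.8 CPM of Arntl, while the other 5 had 272 to 381 CPM of Dbp and 1.18 to 5.37 CPM of Arntl. In FeAAD, the pair stood at 366 and 561 CPM in the 2 libraries and at 49.5 to 215 CPM in the other 7. Dnajb1 was higher in the low-Dbp libraries than in all others of the same group in MaCon, FeNonAD and FeAAD. In FeCon, the pair was related to Arntl with r = 0.92 (permutation adjusted p = 0.0191) and rho = 0.83 (permutation adjusted p = 0.085), with r = 0.88 without the 2 libraries farthest from the median. Relations to Arntl and Dbp did not pass in FeAAD or MaAAD, nor did that to Arntl in MaCon or that to Dbp in FeCon. For Dbp in FeCon, r was −0.70 (permutation adjusted p = 0.0844) and rho −0.75 (permutation adjusted p = 0.142), with r = −0.59 without the 2 farthest libraries. No coefficient is given for Dbp in MaCon, where its values fell into the separate clusters given above. In FeAAD, r with Arntl was 0.30 (permutation adjusted p = 0.678) and rho 0.12 (permutation adjusted p = 0.928), with r = 0.31 without the 2 farthest libraries. For Dbp in FeAAD, r was −0.35 (permutation adjusted p = 0.586) and rho −0.07 (permutation adjusted p = 0.947), with r = −0.57 without those 2, and replicate 5, at 40.2 CPM of Dbp, had the lowest pair of its group. In MaCon, r with Arntl was 0.45 (permutation adjusted p = 0.339) and rho 0.68 (permutation adjusted p = 0.182), with r = 0.39 without the 2 farthest. In MaAAD, r with Dbp was 0.14 (permutation adjusted p = 0.837) and rho −0.11 (permutation adjusted p = 0.947), with r = −0.42 without the 2 farthest. Among 17 tested clock genes, 8 were lower in MaCon than in FeCon as DEGs, against 0.866% of all tested genes, and none was higher. In MaAAD against MaCon 3 rose and 3 fell as DEGs, against 9.18% and 2.18% of all tested genes. In MaNonAD against MaCon 1 rose, against 0.381%, and none fell. In FeAAD against FeCon 3 fell, against 2.78%, and none rose. Median Arntl was 37.7 CPM in MaCon, 5.45 CPM in MaNonAD and 4.95 CPM in MaAAD.

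**Figure D4:**
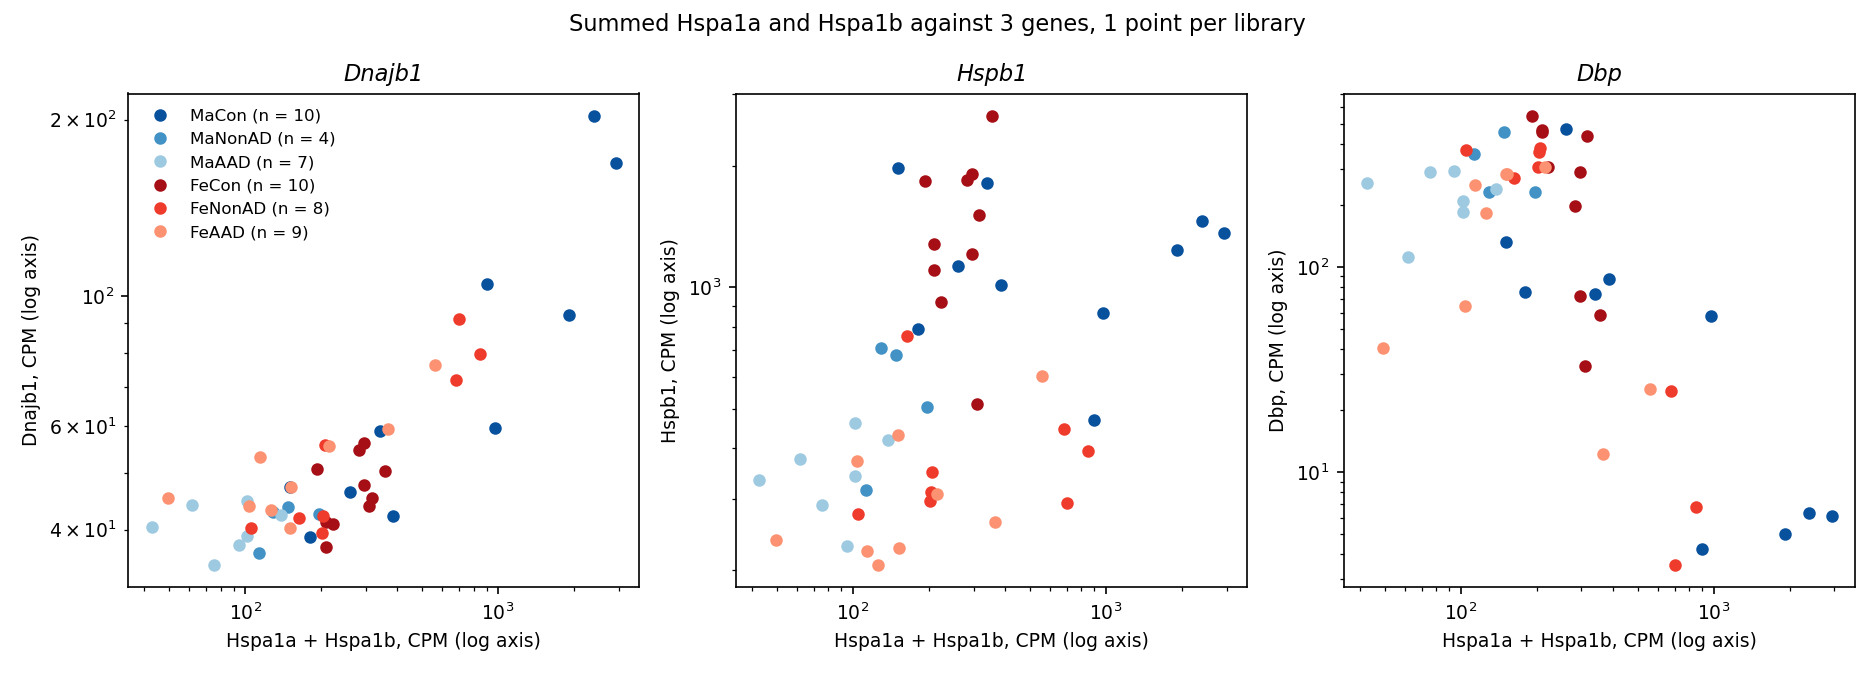
Summed Hspa1a and Hspa1b against Dnajb1, Hspb1 and Dbp in CPM on log axes, with 1 point per library coloured by group. The MaCon and FeNonAD libraries with Dbp under 30 CPM had 681 CPM or more of the pair and 72 CPM or more of Dnajb1, while Hspb1 had no such split.

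The 9 libraries with Dbp under 30 CPM were left out in a further fit, a step chosen after these values were seen. They include most of the highest values of the pair in MaCon, FeNonAD and FeAAD and no FeCon library, so that the pair's values in these 3 groups were lowered by the choice of libraries. Calls of the pair lost or gained in this fit are given as values and say nothing on whether the groups or the sexes differ. MaCon against FeCon then had 0 called members of 10, against 0.397% of all tested genes, with a log2 fold change of 0.51 for the summed pair (adjusted p = 0.296). The interactions had 0 called members each, against 0% of all tested genes, with differences for the summed pair of −0.77 in NonAD (adjusted p = 0.847) and −1.07 in AAD (adjusted p = 0.364). MaNonAD against MaCon also had 0, against 0.0209%, and the summed pair went from −2.80 to −1.38 (adjusted p = 0.16). Of the other members there, Dnajb1 went from −1.06 to −0.23, Bag3 from −0.57 to −0.21, Hsph1 from −1.58 to −1.18, Hsp90aa1 from −1.08 to −0.91 and Hspb1 from −1.13 to −1.19. In MaAAD against the 6 remaining MaCon libraries, 5 members were called, against 2.15% of all tested genes in that fit: Hspa1a (−2.07), Hspa1b (−2.13), Hsph1 (−1.71), Hspa8 (−1.07) and Hspb1 (−1.84). The summed pair there stood at −2.10 (adjusted p = 8.52e-06). Hsp90aa1 stood at −0.98 (adjusted p = 0.000986), just under the fold threshold, and Dnajb1 at −0.26 (adjusted p = 0.0607). The remaining MaCon replicates 1, 2, 3, 9 and 10 had 27.2 to 37.8 CPM of Arntl, and replicate 5 had 1.62 CPM. MaAAD had 2.4 to 8.04 CPM and MaNonAD had 2.04 to 11.4 CPM, so this fit did not even out Arntl between the groups. In FeAAD against FeCon, from which the 2 highest FeAAD libraries for the pair were removed and no FeCon library, 2 members were called, against 2.21% of all tested genes. These were Hspb1 at −2.36 and Hspa1a at −1.09 (adjusted p = 0.00136), and Hspa1b stood at −0.98 (adjusted p = 0.00949), while the summed pair stood at −1.04 (adjusted p = 0.00337). In FeNonAD, which lost its whole upper cluster of the pair, the sum stood at −0.61 (adjusted p = 0.269). Hspb1 in FeNonAD kept its call at −1.89. The part of the clock or of the hour of collection in these values was not tested.

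The genes whose pattern was most like that of the summed pair, by Pearson's r of log2(CPM + 1) around group means over 48 libraries and among 13710 genes, were mostly HSP40 co-chaperones. Among the members, Dnajb1 (r = 0.83), Hsph1 (0.74) and Bag3 (0.63) ranked 3, 9 and 16, whereas Hsp90aa1 (0.51) and Hspa8 (0.50) ranked 77 and 83, Hspd1 (0.36) ranked 420, and Hspb1 (0.11) and Hspe1 (0.06) ranked 3630 and 5103. The 5 nearest genes outside the members were Dnaja4 (0.80), Ccdc117 (0.76), Dnaja1 (0.76), Dnajb4 (0.76) and Dnajb2 (0.75). All but Ccdc117 encode J-domain proteins of the HSP40 family. Dnajb4 had a median of 218 CPM in MaCon (148 to 555) and of 131 CPM in MaAAD (97.6 to 235), and its AAD response differed between the sexes by −1.31 (adjusted p = 0.0239). Dnajb2, an HSP40 with ubiquitin-interacting motifs, ranged from 91.5 to 161 CPM in MaCon and from 48.1 to 64.9 CPM in MaAAD without overlap (log2 fold change −1.09, adjusted p = 1.33e-09).

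Of 73 listed chaperones and co-chaperones outside the members, 71 were tested. Their median log2 fold change was −0.21 in MaAAD, −0.04 in FeAAD, −0.18 in MaNonAD and −0.06 in FeNonAD, beside −1.16, −0.27, −1.07 and 0.06 for the members, and the difference between the lists was not tested. In MaAAD 6 of them (8.45%) fell as DEGs, against 2.18% of all tested genes, and none rose, against 9.18%. The largest were Hspa1l (−1.53, adjusted p = 2.58e-05), Dnajb2, Ahsa2 (−1.09, adjusted p = 1.66e-05) and Dnajb4 (−1.07, adjusted p = 0.000376). Hspa1l is a neighbour of Hspa1a, and its reading frame was 82.9% identical to that of Hspa1a, with an identical stretch of 233 bases, so that its count may share reads. In FeAAD 4 (5.63%) fell, against 2.78% of all tested genes, led by Fkbp5 (−1.93, adjusted p = 0.000585), an HSP90 co-chaperone induced by glucocorticoids. A further 2 (2.82%) rose, against 9.94% of all tested genes. Both that rose fold proteins in the endoplasmic reticulum: Pdia6 (1.11, adjusted p = 5.15e-06) and Pdia4 (1.07, adjusted p = 5.63e-06). Fkbp5 was also lower in FeNonAD (−1.91, adjusted p = 0.00553) and in MaCon than in FeCon (−1.42, adjusted p = 0.0227), where Ahsa2, an activator of HSP90, was higher (1.03, adjusted p = 8.2e-05). Of 5 listed HSF-related genes (Hsf1, Hsf2, Hsf4, Hsf5 and Hsbp1), 4 were tested and none was a DEG in the comparisons with controls. By adjusted p alone 1 of the 4 fell in MaAAD, as did 16.1% of all tested genes, and 2 fell in FeAAD, as did 20.6%. Hsf1, which encodes HSF1 and is named after its values were seen, stood at −0.66 in MaAAD (adjusted p = 4.53e-07) and −0.43 in FeAAD (adjusted p = 8.94e-05).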

How the data were processed

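Thoracic aortas of 48 mice were profiled by bulk RNA-seq on strand-specific mRNA libraries made from saline-perfused, snap-frozen tissue. The authors aligned reads with Bowtie2 and estimated expected counts per gene with RSEM 1.3.1 on GRCm39, per the submitters' processing notes. The deposited table held these expected counts for 18782 genes, and 4.99% of its values were not whole. RSEM divides reads that match several genes, and values of Hspa1a and Hspa1b were fractional in 47 and 48 libraries. Values were rounded to whole counts here. Totals ranged from 13548003 to 17281262 counts, and this number limits precision for counting error only.

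Samples were grouped by their labels. Genes passing filterByExpr were scaled by TMM (factors 0.874 to 1.08) and fitted over all 6 groups with edgeR 4.0.16 in R 4.3.3, using the quasi-likelihood test and Benjamini-Hochberg adjustment. The fit was tested on simulated data. CPM values were computed here with the TMM factors. DESeq2 1.42.0, library totals, no filter, the compared groups alone, a replicate block and leaving out each library were the alternatives. Labels name no cage or litter, so p-values measure the spread between these mice.

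Named genes were the 10 members, other chaperone DEGs (at most 4 per comparison by size), the 5 genes nearest in pattern and a few clock genes and markers. The members, gene lists and tests were chosen with earlier results of these data known. Promoter windows came from RefSeq (GRCm38.p6), a build other than that of the counts, and were matched by symbol.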

Additional observations from a re-analysis of the deposited data

Results flagged for a closer look

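Single libraries stood apart from the rest of their group in 4 of 60 combinations of member and group checked, where chance gives about 1 in 20. Hspa8 was 1165 CPM in MaCon replicate 5, the lowest of that group, which also had the lowest Hsph1 and Hsp90aa1 of MaCon. That library had 1.62 CPM of Arntl, against 27.2 to 63.1 CPM in the other MaCon libraries, and 472 CPM of Dbp, against at most 133 CPM. Its summed Hspa1a and Hspa1b stood at 260 CPM, above the MaAAD range of 42.7 to 138 CPM. The part of the clock in these values was not tested. Dnajb1 was 36.5 CPM and Bag3 was 100 CPM in MaNonAD replicate 1, the library with the lowest value of all 10 members in its group. Bag3 was 84.9 CPM in FeAAD replicate 5.

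The response to BAPN differed between the sexes by an interaction test for 2 members in NonAD and 4 in AAD. In NonAD the log2 difference of the male and the female response was −3.09 for Hspa1a (adjusted p = 0.0378) and −3.64 for Hspa1b (adjusted p = 0.03). In AAD it was −2.95 for Hspa1a (adjusted p = 0.0106), −3.39 for Hspa1b (adjusted p = 0.00925), −1.79 for Hsph1 (adjusted p = 0.0347) and −1.23 for Dnajb1 (adjusted p = 0.0378). Without the 9 libraries with Dbp under 30 CPM, which hold most of the highest Hspa1a and Hspa1b values, the AAD differences were −0.98 for Hspa1a, −1.15 for Hspa1b, −0.87 for Hsph1 and −0.27 for Dnajb1, and none passed.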

How the results depend on the processing

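No value changed sign from a call under any alternative run. For single members, 3284 values kept a call in the same direction or stayed uncalled within 1 SE of the main log2 fold change. A call was lost by 102 values and gained by 19, and 45 uncalled values moved by 1 SE or more. Uncalled values could change sign within that limit, as Hspa8 in FeAAD did, from −0.08 to 0.03 without FeCon replicate 7. Members called in MaNonAD against MaCon numbered 3, and 6 by DESeq2, 0 with the compared groups alone and 0 without the low-Dbp libraries. The interaction for NonAD called 2 members, 1 without the filter on low counts and 0 without the low-Dbp libraries, and the interaction for AAD called 4 and then 0. MaCon against FeCon called 3, and 7 by adjusted p alone and 0 without the low-Dbp libraries. By adjusted p alone, FeNonAD against FeCon called 2 members rather than 1, as did FeAAD against FeCon, where 2 were also called without the low-Dbp libraries. With library totals 1 member passed in the relations within MaAAD rather than 0. Leaving out those 9 libraries was chosen after seeing the data. The cause of these changes was not tested, except that fewer samples enter when libraries are left out.

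Leaving out single libraries gave 0 to 6 called members for MaNonAD against MaCon, 6 to 7 for MaAAD against MaCon, 2 to 3 for MaCon against FeCon, 0 to 3 for the NonAD interaction and 2 to 5 for the AAD interaction. With a replicate block 0 members were called in MaNonAD against MaCon, 0 in the NonAD interaction and 0 in the AAD interaction. The numbers do not pair the mice: at most 3 same-numbered pairs per comparison had correlated deviations (r over 0.1), and the mean r was −0.07 to 0.16.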
